A study of Mus musculus with 6 samples.

Results

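A group of 7 genes of neurotrophic signalling were followed in mouse taste cells at 2 ages. They are the neurotrophin genes Bdnf, Ntf3 and Ntf5, the ligand gene Gdnf and the receptor genes Ngfr, Ntrk2 and Ntrk3, and they were taken by name from a table of 23361 genes, in which all 7 were found. Taste cells were harvested from 2 kinds of papillae, the circumvallate (CV) at the back of the tongue and the foliate (Fol) along its edges, of C57BL/6 mice with no further treatment or genetic change. Each age had 3 pools, made from 4 mice each at the younger age of 2 months and from 3 mice each at 6 months, so that neither a single mouse nor a single bud can be seen. The table holds 1 value per gene and age, set by the authors over the 3 pools, and no SD, standard error or test is given for any difference described here. The study compared these ages to look for genes with a part in the renewal of taste cells.

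Neurotrophins are small secreted proteins on which sensory neurons depend for survival and for finding their targets. Each is cut from a longer precursor and acts through a receptor tyrosine kinase of the Trk family, TrkB (Ntrk2) for BDNF and neurotrophin-4 and TrkC (Ntrk3) for neurotrophin-3, while the receptor p75 (Ngfr) binds all of them and also their uncut precursors. In the tongue, BDNF made in the taste epithelium guides gustatory fibers to the taste buds, neurotrophin-4 keeps many of the same neurons alive in the embryo, and neurotrophin-3 supports mainly the somatosensory fibers of the tongue. GDNF belongs to a different ligand family, which signals through the kinase Ret and a GFRα co-receptor.

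The values are FPKM, a fragment count corrected for the length of the transcript and the size of the library, so levels of different genes can be compared within an age. All 7 genes were above 0 at both ages, and 6 of the 7 averaged 1 FPKM or more over the ages, the level from which a gene was counted as expressed here. Gdnf was under it. At 2 months the order from high to low was Ntf3, Bdnf, Ngfr, Ntrk2, Ntf5, Ntrk3 and Gdnf. At 6 months Ngfr stood above Bdnf, and the other places were the same. With 1 value per age, no pair of neighbours in this order can be said to differ beyond the spread between pools.

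**Figure D1:**
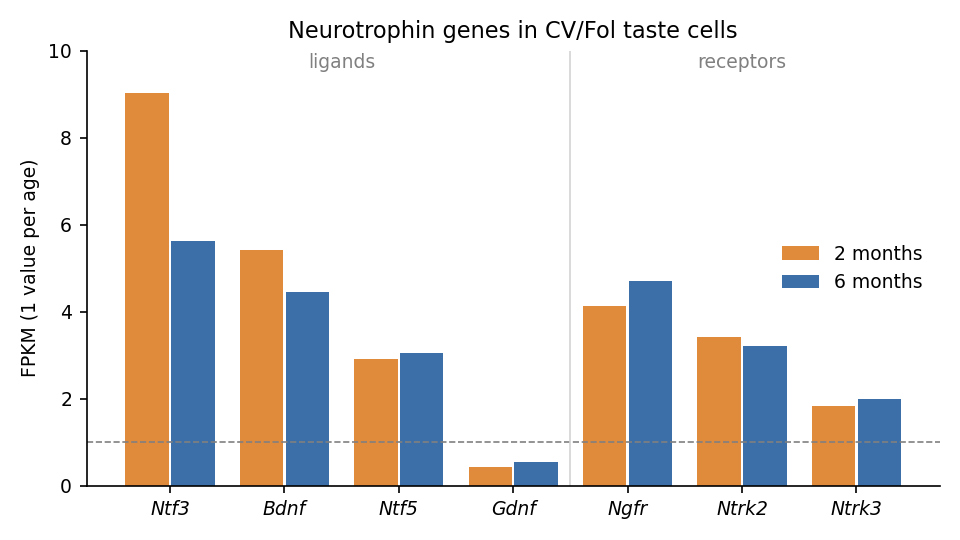
Bars give the authors' FPKM value of each member at 2 months (orange) and 6 months (blue), with the ligands on the left and the receptors on the right, and the dashed line marks 1 FPKM. Ntf3 has the tallest bar at both ages and the widest gap between them (9.03 and 5.62 FPKM), and Gdnf stays under the line.

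Ntf3, which encodes neurotrophin-3, had the highest level of the members at both ages and the largest difference between them. Its level of 9.03 FPKM at 2 months stood against 5.62 FPKM at 6 months, so that the younger value was 1.61 times the older one. At 2 months 68.7% of all genes in the table had a lower FPKM than Ntf3, and at 6 months 61.9% had. The change, the 6 month minus the 2 month value on the log2(FPKM + 1) scale, was -0.60, which is just past the 1.5-fold difference (0.58 on this scale) used here to call a gene. The call rests on the scale. It was lost when both ages were given the same upper quartile (-0.56) or the same summed FPKM without microRNA and small nucleolar RNA genes (-0.52), and Ntf3 remained lower at 6 months under both.

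Of the 12652 expressed genes, 350, or 2.77%, were called by the 1.5-fold rule. Of these, 217 (1.72% of the genes) were lower at 6 months and 133 (1.05%) were higher. Of the 6 expressed members, 1 was called, Ntf3, and 0 were higher past the fold. A difference as low as that of Ntf3 was listed for 1.68% of the expressed genes. The median change of the 6 members was -0.01, as was that of all expressed genes, whose quartiles were -0.10 and 0.08.

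**Figure D2:**
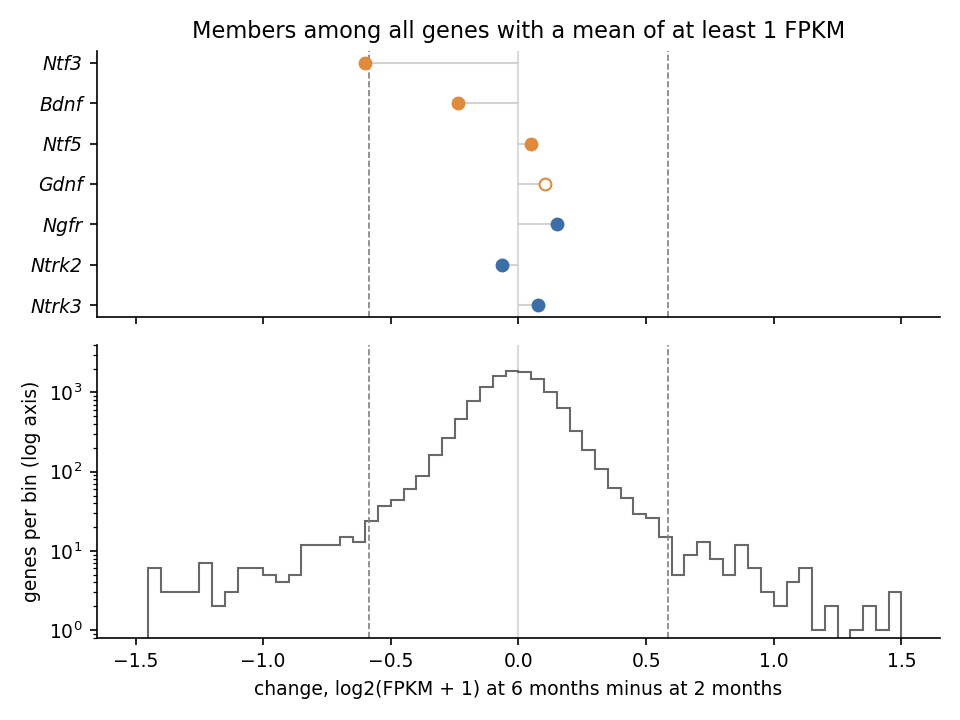
The upper panel gives the change of each member on the log2(FPKM + 1) scale, with ligands in orange, receptors in blue and an open circle for Gdnf, which averaged under 1 FPKM; the lower panel counts all expressed genes in bins of 0.05 on the same axis, with 92 genes below and 49 above its range. Dashed lines mark 1.5-fold, and Ntf3 at -0.60 is the only member beyond them.

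Ntf3 lies on chromosome 6 of GRCm38, from 126101412 to 126166910 on the minus strand, with 3 annotated transcripts, and shares no exonic base with another annotated gene. The promoter windows of both of its RefSeq starts, from 250 bases before to 50 after the start, are shown because Ntf3 was the member called, and because the study concerns the AP1 factors, whose site can be looked for in them. Both are printed 5′ to 3′ on the strand of the gene (build GRCm38.p6, chr6:126166695-126166994 and chr6:126164911-126165210). Capitals mark the one match to the motifs searched.
Ntf3, outer start: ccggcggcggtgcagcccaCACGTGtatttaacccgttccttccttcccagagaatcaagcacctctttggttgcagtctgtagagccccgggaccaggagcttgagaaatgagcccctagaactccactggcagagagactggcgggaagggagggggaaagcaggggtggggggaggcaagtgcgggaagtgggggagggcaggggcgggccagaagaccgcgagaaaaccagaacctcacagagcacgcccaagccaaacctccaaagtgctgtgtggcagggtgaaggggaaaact
Ntf3, inner start: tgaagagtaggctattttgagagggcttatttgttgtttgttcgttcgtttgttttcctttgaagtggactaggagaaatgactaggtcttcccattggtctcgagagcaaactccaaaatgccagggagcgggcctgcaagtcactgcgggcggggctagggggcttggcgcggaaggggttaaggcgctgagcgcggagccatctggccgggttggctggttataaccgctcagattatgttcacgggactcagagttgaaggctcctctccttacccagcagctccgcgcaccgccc
Each motif was searched on both strands. The AP1 site TGACTCA was in neither window, and 5.20% of the 32851 promoter windows of RefSeq hold it. The cyclic AMP response element TGACGTCA was also in neither, against 1.79% of all windows. The E-box CACGTG, the binding motif of many basic helix-loop-helix factors, begins 231 bases before the outer RefSeq start and is found in 7.15% of all windows. The gene coordinates above are from GENCODE and begin inside the outer window, upstream of its RefSeq start. Of the 13 windows of the 5 members with an entry in the promoter table, 0 hold either of the first 2 motifs and 1 holds the E-box, that of Ntf3. A gene's FPKM does not tell which start was used, and a match or its lack describes the letters of these windows only.

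Bdnf, the gene of brain-derived neurotrophic factor, was measured at 5.43 FPKM in 2 month and 4.45 FPKM in 6 month cells, 18.0% lower at the older age (a change of -0.24 on the log2(FPKM + 1) scale). A change as low was listed for 7.79% of the expressed genes, and Bdnf was not called. It lies on chromosome 2 from 109674700 to 109727007, with 11 annotated transcripts that begin at several alternative first exons, and 7 promoter windows. The annotation also places an antisense gene, Gm45346, over 896 of its exonic bases. Since the reads were mapped with default parameters, which take a library as unstranded, reads of the 2 could not be told apart, and Gm45346 has no row of its own in the table.

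Ntf5, the mouse gene of neurotrophin-4, was at 2.91 FPKM in 2 month and 3.04 FPKM in 6 month cells (change 0.05). The difference is among the smaller ones, since 72.5% of the expressed genes had one at least as large in either direction. Gdnf was at 0.433 FPKM in 2 month and 0.540 FPKM in 6 month cells, and 40.5% and 41.9% of the genes in the table had a lower value. Ntf5 spans 45413695 to 45417179 on chromosome 7 and Gdnf spans 7810846 to 7837575 on chromosome 15.

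Ngfr, the gene of p75, was the highest of the receptors, with 4.14 FPKM in 2 month and 4.70 FPKM in 6 month cells and a change of 0.15. Of the expressed genes, 12.4% had a change as high. Ngfr was the only member to pass another in the order of levels, as Ngfr was higher and Bdnf lower at 6 months. It lies on chromosome 11 from 95568818 to 95587735 and has 1 annotated transcript.

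Ntrk2, the gene of TrkB, was at 3.41 FPKM in 2 month and 3.22 FPKM in 6 month cells (change -0.06), and its sign turned with the scaling to the same summed FPKM (0.01). Ntrk3, the gene of TrkC, was the lowest of the receptors, at 1.84 FPKM and 1.99 FPKM (change 0.08). Both genes are known to make full-length receptors and truncated ones that lack the kinase. The annotation shows this range, with coding sequences of 1398 to 2463 bases in the 7 coding transcripts of Ntrk2 (chromosome 13, 58806569 to 59133970). Ntrk3 (chromosome 7, 78175959 to 78738012) has 6 coding transcripts, the longest with a coding sequence of 2592 bases. The value of a gene sums over its transcripts, so the level of the full-length kinases is not known from it.

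Each ligand can be set beside its receptor on the FPKM scale. Ntf3 had 4.92 times the FPKM of Ntrk3 at 2 months and 2.83 times at 6 months. Bdnf had 1.59 and 1.38 times the FPKM of Ntrk2, while Ntf5, the other TrkB ligand, stood at 0.853 and 0.944 times Ntrk2. The sum of the 3 neurotrophin members was 17.4 FPKM in 2 month and 13.1 FPKM in 6 month cells, and that of the 3 receptor members was 9.39 and 9.91 FPKM. The ratio of the sums was thus 1.85 at 2 months and 1.32 at 6 months, and most of the difference lay in Ntf3. In pooled cells, fewer cells of a kind and less RNA per cell cannot be told apart.

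Of the 50 genes in 6 lists of pathway partners, 39 were expressed and 0 were called, where 2.77% of all expressed genes were. Their changes ran from -0.31 to 0.42, with a median of 0.07, and 24 of the 39 were higher at 6 months, against 5854 of all 12652 expressed genes. No test is behind these counts.

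**Figure D3:**
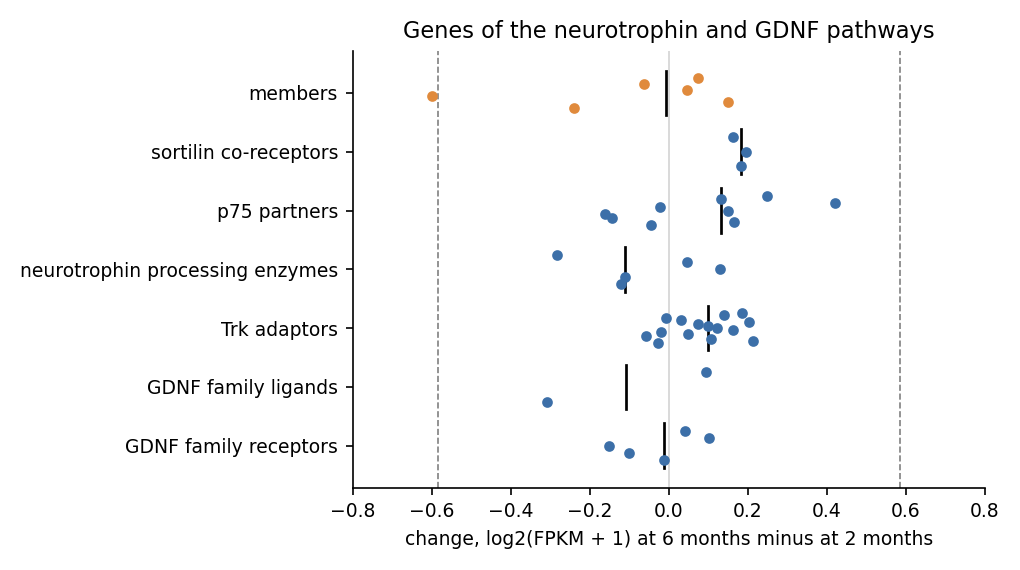
Each point is an expressed gene, placed by its change on the log2(FPKM + 1) scale and grouped by list, with a black bar at the median of the list; members are orange and dashed lines mark 1.5-fold. The 39 pathway genes lie between -0.31 and 0.42, inside the lines, and Ntf3 at -0.60 lies outside them.

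Sortilin-type receptors, some of which pair with p75 and bind uncut precursors, had 3 expressed genes of 5. All 3 were higher at 6 months, with changes of 0.16 to 0.20. Sort1 was the highest at 22.4 and 25.2 FPKM, and Sorcs3 the lowest at 0.0545 and 0.0175 FPKM. Among 10 partners of p75, 9 were expressed, with a median change of 0.13. Arhgdia, which holds small GTPases inactive, was the highest at 123.3 and 119.5 FPKM. Lingo1 was the lowest at 0.0339 and 0.0563 FPKM. The largest change of the list was that of Rtn4r, the Nogo receptor, which was at 0.949 FPKM in 2 month and 1.61 FPKM in 6 month cells (0.42). It was called with a pseudocount of 0.1 in place of 1.

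Enzymes that cut the precursors were represented by 5 expressed genes of 7, with a median change of -0.11. Cpe, a carboxypeptidase that also sorts the BDNF precursor, was the highest at 62.4 and 57.4 FPKM. Furin, the protease of the secretory pathway, was at 31.6 and 29.2 FPKM. Plg, the gene of plasminogen, which is made chiefly in liver, was listed at 0 at both ages, while Plat, its activator, was at 7.23 and 5.77 FPKM (change -0.28).

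The adaptors through which Trk kinases reach the Ras and phospholipase pathways had 15 expressed genes of 18, of which 11 were higher at 6 months with a median change of 0.10. Their changes stayed between -0.06 and 0.21. Crk had the highest level, 43.6 FPKM in 2 month and 42.8 FPKM in 6 month cells, and Shc4 the lowest, 0.199 and 0.119 FPKM. Frs2, the docking protein of the Trk kinases, was at 7.47 and 8.13 FPKM.

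Gdnf had the lowest level among the ligands of its own family. Of 3 other ligands 2 were expressed, 1 with a higher and 1 with a lower value at 6 months. Of 7 receptors and co-receptors 5 were expressed, 2 of them higher and 3 lower, with a median change of -0.01. Artn, the gene of artemin, was at 16.1 FPKM in 2 month and 12.9 FPKM in 6 month cells (change -0.31), which is 37.3 and 23.8 times the level of Gdnf. Nrtn, the gene of neurturin, was at 4.36 and 4.72 FPKM, and Pspn, the gene of persephin, at 1.02 and 0.831 FPKM. The kinase gene Ret was at 1.74 and 1.94 FPKM (change 0.10). Of the co-receptors, Gfra2, which prefers neurturin, was at 5.32 and 5.27 FPKM. Gfra1, which prefers GDNF, was at 0.286 and 0.386 FPKM, and Gfra3, which prefers artemin, was the lowest of its list at 0.0586 and 0.0349 FPKM. Sdc3, a heparan sulfate proteoglycan that can bind GDNF, was the highest at 37.9 and 39.0 FPKM.

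The label of taste cells was checked against markers. Gnat3, Trpm5 and Plcb2 of type II cells were between 27.7 and 84.7 FPKM at both ages. The other type II markers were Itpr3, at 35.0 FPKM in 2 month and 42.1 FPKM in 6 month cells, and Tas1r3, at 10.3 and 14.6 FPKM. The 3 type I markers summed to 76.1 FPKM in 2 month and 66.4 FPKM in 6 month cells, mostly from Entpd2 (66.1 and 57.7 FPKM). Kcnj1 was also lower at 6 months (9.25 and 7.71 FPKM), while Slc1a3 averaged under 1 FPKM and was higher (0.710 and 0.988 FPKM). The 5 type II markers summed to 212.4 and 219.4 FPKM, with 3 of them higher at 6 months, 2 lower (Gnat3 and Trpm5) and 0 called. The 4 basal epithelium markers summed to 3719 and 3722 FPKM, and the 5 markers of type III cells, among them Snap25, summed to 31.3 and 36.3 FPKM, each of them higher at 6 months and 0 called. The pools also held much epithelium, since the basal keratin genes Krt5 and Krt14 were between 1287 and 2180 FPKM. Of the 12 marker lists, skeletal muscle moved most with age. Of its 6 genes 4 were expressed, all of them called higher, against 1.05% of all expressed genes. These 4 were weakly expressed, with means of 1.78 to 3.86 FPKM, and Myh1 and Myh4 averaged under 1 FPKM. The summed level of the list was 7.39 FPKM in 2 month and 16.9 FPKM in 6 month cells.

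Markers of nerve and of connective tissue, other known sources of the members' transcripts, were mixed in level. Many were under 1 FPKM, several lay within the range of the members (0.433 to 9.03 FPKM), and Mbp and Dcn were above every member. The 6 markers of Schwann cells, a cell type that makes p75, summed to 25.1 FPKM in 2 month and 22.2 FPKM in 6 month cells. Most of this was Mbp (16.2 and 16.0 FPKM) and Pmp22 (5.89 and 4.22 FPKM). The lineage factor Sox10 was at 1.95 and 1.05 FPKM, and Foxd3 was at 0.00602 and 0 FPKM. The 7 sensory neuron markers summed to 4.14 and 3.24 FPKM, mostly from Nefl (1.96 and 1.33 FPKM) and P2rx2 (1.67 and 1.45 FPKM). These 2 were the expressed ones and both were lower at 6 months. Prph, the gene of peripherin, was at 0 and 0.0105 FPKM. The 6 fibroblast markers summed to 44.0 and 29.0 FPKM, nearly all of it from Dcn (42.0 and 27.3 FPKM), and Col1a1 (0.134 and 0.0599 FPKM) and Col1a2 (0.121 and 0.0658 FPKM) were near 0. The 3 Merkel cell markers summed to 41.1 and 30.6 FPKM through Krt20, with Atoh1 listed at 0. The 4 endothelial markers summed to 1.96 and 1.95 FPKM, and the 4 of pericytes and smooth muscle to 2.47 and 2.41 FPKM. The 4 of melanocytes summed to 1.35 and 1.05 FPKM, mostly from Pmel (1.25 and 0.983 FPKM), with Tyrp1 and Mlana listed at 0. Dcn was itself called lower (change -0.60). Of the 12 marker lists, 8 had a lower sum at 6 months. They were type I taste cells, Schwann cells, sensory neurons, fibroblasts, endothelium, pericytes and smooth muscle, melanocytes and Merkel cells. The summed FPKM of all genes was also lower, at 0.958 times its 2 month value, and 53.7% of the expressed genes were lower. For endothelium (0.995 times) and for pericytes and smooth muscle (0.975 times) the sums at the 2 ages were nearly equal. The sums of type II and type III taste cells and skeletal muscle were higher. That of basal epithelium was nearly the same at both ages (1.001 times). Of its 4 genes 3 were lower and only Krt14 was higher, with a median change of -0.14. The part of these cells in the values of Ntf3, Bdnf or Ngfr was not tested.

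**Figure D4:**
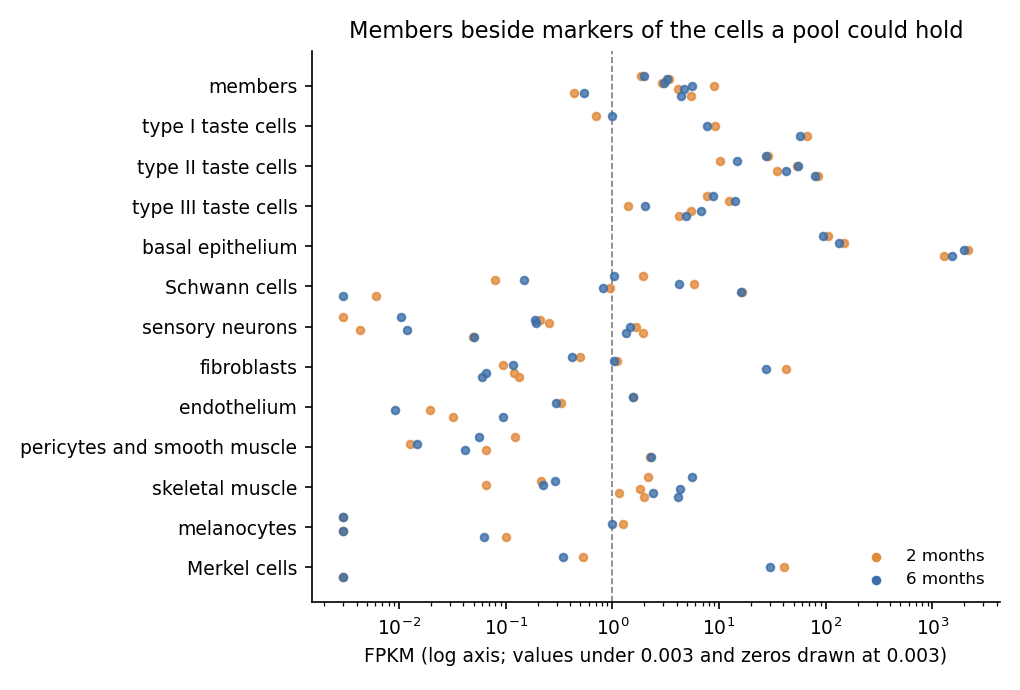
Points give the FPKM of each member and of each marker gene by list, at 2 months (orange) and 6 months (blue), on a log axis with a dashed line at 1 FPKM and zeros drawn at 0.003. The members lie between 0.433 and 9.03 FPKM, below every type II marker and far below the basal epithelial genes, whose highest value is 2180 FPKM.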

How the data were processed

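Sequenced RNA came from CV/Fol taste cells in 6 libraries, 3 at 2 months and 3 at 6 months, from poly(A)-selected TruSeq preparations. The authors aligned reads to GRCm38/mm10 with TopHat2 2.0.7 and the iGenomes RefSeq annotation, and estimated abundance with Cufflinks 2.1.1 and Cuffdiff. The deposited values are FPKM, with 1 value per age made by the authors over its 3 libraries. The sample letters in the table (B, S) were matched to the sample titles. The age labels give 2 months where the series' design text once names 3. The table also holds p-values of the authors' own comparison of the ages, which were not used. Library depth is unknown, since FPKM does not carry it, and counting error cannot be given. TopHat was run with default parameters, which take a library as unstranded.

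Changes are log2(FPKM + 1) at 6 months minus 2 months, which understates those of weakly expressed genes. A gene was called at 1.5-fold on that scale when its mean over the ages reached 1 FPKM. The unit left no test to run. The members and the 6 pathway and 12 marker lists were chosen with earlier results of these data known. Text names every member, each pathway gene past the fold and the highest and lowest gene by mean FPKM of each pathway list (some listed genes are not reported here), while Furin, Plat, Rtn4r, Frs2, Nrtn, Ret, Gfra1, Gfra2 and the markers were named after their values were seen. The 3 motifs were chosen with the Ntf3 windows in view. Coordinates and transcripts are those of GENCODE M21 (GRCm38) and promoter windows those of RefSeq, in which 5 of 7 members had entries. The coding of the fold call was checked on a copy of the 2 month values with 200 altered genes. No noise was added, and the altered genes had higher levels than any member and changes well past 1.5-fold. The outcome was thus fixed in advance, and the check cannot bear on the call of Ntf3. Alternatives were a pseudocount of 0.1, no filter, a minimum mean of 5 FPKM, 2-fold, the same upper quartile at both ages (6 month values times 1.03) and the same summed FPKM without 760 microRNA and small nucleolar RNA genes (times 1.07). Python 3.11.15, numpy 2.4.6, pandas 2.3.3 and matplotlib 3.10.9 were used.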

Additional observations from a re-analysis of the deposited data

How the results depend on the processing

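Of the members, 1 passed 1.5-fold, and it was Ntf3 with a pseudocount of 0.1, with no filter and at a mean of at least 5 FPKM as well. The number was 0 with the same upper quartile at both ages, 0 with the same summed FPKM without microRNA and small nucleolar RNA genes, and 0 at 2-fold. The change of Ntf3 was -0.67 with a pseudocount of 0.1, -0.56 with the same upper quartile and -0.52 with the same summed FPKM. The last 2 settings multiply the 6 month values by 1.03 and 1.07 and so move every gene upward. Of 21 recomputed changes of members, 20 kept their sign, and the exception was Ntrk2 (0.01 with the same summed FPKM). The number of pathway genes past the fold was 0 under each setting but the pseudocount of 0.1, which gave 1, Rtn4r. Over all genes that passed the level filter of the setting, the number was 350, between 262 and 459 under the other settings at 1.5-fold, and 202 at 2-fold. The genes counted were 9311 at a mean of at least 5 FPKM, 23361 with no filter and 12652 otherwise. No paired analysis was possible because each gene has 1 value per age, and for the same reason fits without single replicates were not run. Precision is limited by the unknown depth and by the lack of a spread between pools in the values used, most of all for Gdnf and other genes under 1 FPKM.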
